A study of Rattus norvegicus with 43 samples.

Results

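The comparison described here is night against day in the kidney cortex of SS rats on a high salt diet. It sets 5 libraries titled for 2am against 5 titled for 2pm, which are 10 of the 43 libraries of the series. The libraries were grouped by their titles and not by any measured value, but they were chosen with earlier results of these data known. SS rats are the salt-sensitive hypertension strain of the study. All animals were male and ate chow with 4% NaCl (high salt) or 0.4% NaCl (normal salt) for 3 weeks before the cortex was taken in the active phase (2am, night) or the inactive phase (2pm, day). Poly(A) RNA was sequenced, and the series also holds rats labelled SSper1-/-, called Per1KO here, and a normal salt arm of 6 SS libraries at each time. The SS groups described here carry no engineered allele. Nothing in the labels ties a library to 1 animal, so p-values measure a spread between libraries, which may be technical in part. In the main comparison this spread was pooled over all 20 high salt libraries, Per1KO libraries included.

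The circadian clock of mammalian cells is a loop of transcription. CLOCK or NPAS2 pairs with BMAL1 (gene Arntl) and activates genes through E-boxes, among them the Per and Cry repressors that later shut the pair off. REV-ERB receptors (Nr1d1, Nr1d2) repress Arntl through ROR elements, and the PAR bZIP factors Dbp, Tef and Hlf and their opponent Nfil3 act on D-boxes. In the kidney this clock times sodium transport, glucocorticoid responses and metabolism.

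Depth was 16.7 to 24.4 M fragments in the SS high salt libraries. Values are FPKM, the fragments of a gene per kilobase of its transcript after scaling for library size. Differences are 2am minus 2pm in log2(FPKM + 1), with the standard error (SE) from limma, and a gene passed when its Benjamini-Hochberg adjusted p was below 0.05. Of 34899 genes in the high salt table, 14899 had an FPKM of at least 1 in at least 5 of its 20 libraries and were tested. Markers of the labelled tissue were present: the proximal tubule endocytosis receptor Lrp2 ran from 180 to 371 FPKM over the 10 libraries and 0 of 5 adrenal cortex markers reached the test.

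Libraries 4 and 5 of the 2pm group stood apart from the other 8. The first principal component held 45.4% of the variance and placed them at 70.3 and 40.7, against -35.2 to 5.9 for the others. The mean log2(FPKM + 1) of 12 proximal tubule markers was 6.80 and 7.83 in them, against 8.69 to 9.29 in the other 8. Of the 12 markers, 9 lay below all other libraries in both and 1 lay above. None of these 12 markers was at 0. The glucose transporter Slc5a2 was at 2.01 and 16.2 FPKM in these libraries, against 219, 131 and 104 FPKM in 2pm replicates 1 to 3.

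All 8 podocyte markers were likewise lower in both libraries than in any other, with a list mean of 2.07 and 2.85 on the log2 scale against 3.66 to 4.14. The mean of the 8 principal cell markers of the collecting duct was higher, at 5.50 and 5.24 against 4.20 to 4.77. Of these 8 markers, 4 exceeded all other libraries in both and 0 lay below. The 26 tested tubular injury genes averaged 5.55 and 5.48 against 3.78 to 4.99. Of the 26, 15 exceeded all other libraries in both and 1 lay below. Lcn2, an injury-induced secreted protein, was at 91.2 and 72.4 FPKM in them and at 2.79 to 33.3 FPKM in the other 8. The 4 tested perirenal fat markers averaged 3.67 and 3.23 against 1.83 to 3.12, and the 3 tested inner medulla markers 4.61 and 3.56 against 3.14 to 3.86. In bulk tissue, fewer cells of a type and less RNA per cell cannot be told apart. The main results below are therefore given with and without 2pm replicates 4 and 5, an alternative chosen after the values were seen, and the part of these marker levels in the night-day differences was not tested.

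**Figure D1:**
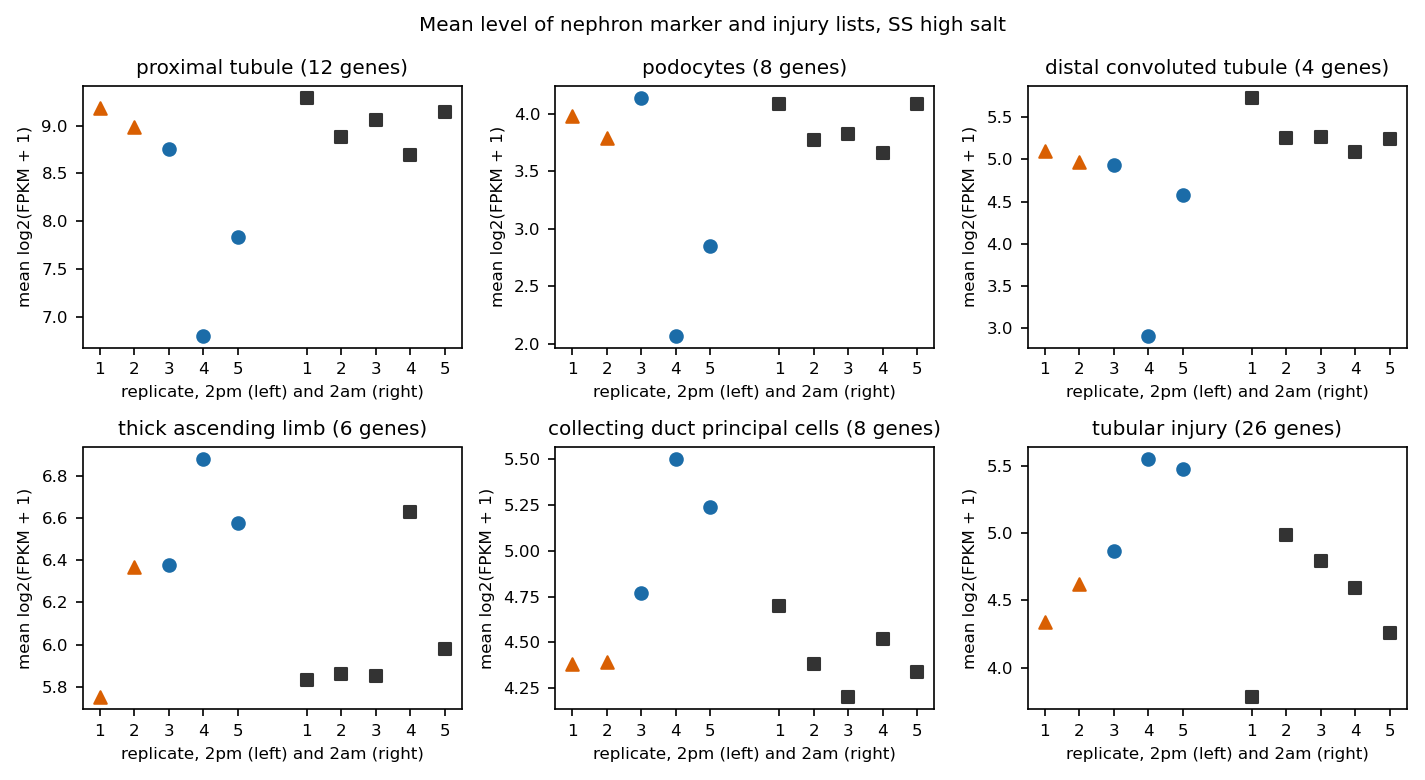
Mean log2(FPKM + 1) of 6 gene lists (vertical axes) in each SS high salt library (horizontal axes, replicate number, 2pm to the left and 2am to the right of each panel). Triangles are 2pm replicates 1 and 2, circles 2pm replicates 3 to 5 and squares the 2am libraries. Replicates 4 and 5 of the 2pm group are the lowest for proximal tubule (6.80 and 7.83) and podocyte markers (2.07 and 2.85) and the highest for tubular injury genes (5.55 and 5.48).

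Between 2am and 2pm, 811 of 14899 genes differed (5.44%) by limma with Benjamini-Hochberg adjustment, 425 higher (2.85%) and 386 lower (2.59%) at 2am. The genes that were higher at night included the lactate transporter Slc16a1, the clock repressor Cry1, and lipogenic and chaperone genes. Those that were lower included Nr1d1, Nr1d2 and 5 autophagy and lysosome genes. Without 2pm replicates 4 and 5 the count was 171 (1.15%), 105 higher (0.705%) and 66 lower (0.443%), of which 137 were among the 811. The spread was taken from all 4 groups of the high salt table. A fit of the 2 SS groups alone passed 45 genes, of which 44 were among the 811. Between the groups of 5 and 5, 663 genes (4.45%) did not overlap.

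Single libraries moved the count. It was 2398 without 2pm replicate 1, 351 and 383 without 2pm replicates 4 and 5, and 347, 506, 409 and 429 without 2am replicates 1, 2, 3 and 5. Of 69 genes named here or by the rule that passed, 31 also passed with each single library left out. The 9 that passed under every alternative run were Nr1d1, Nr1d2, Cry1, Fkbp4, Ndrg1, Scd2, Srebf1, Wsb1 and Barx2. With voom on the fragments recovered from FPKM the split was 709 higher and 189 lower. The 2am and 2pm libraries carry library names from separate ranges, so a difference between library sets and a difference between times cannot be told apart here.

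Of the 17 clock and PAR bZIP genes tested, 6 passed, against 5.44% of all genes. Arntl, Clock, Cry1 and Nfil3 were higher at 2am, and Nr1d1 and Nr1d2 were lower. Without 2pm replicates 4 and 5, 6 of 17 also passed (1.15% of all genes): Arntl, Cry1 and Nfil3 higher, Nr1d1, Nr1d2 and Dbp lower. The median difference of the 17 was 0.19 with all libraries and -0.06 without those 2, and that of all genes was 0 in both.

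The promoters of 5 clock genes are shown because each holds a motif through which the loop acts, and because their mRNAs took different courses in the single 2pm libraries. Sequences are RefSeq promoters of the GRCr8 build, 250 bases before to 50 after the start of the gene, written 5′ to 3′. Capitals mark an E-box (CACGTG), a D-box (TTATGTAA or TTACGTAA) or a ROR element (TAGGTCA), searched on both strands. No motif overlapped another.
Arntl, chr1:176766078-176766377, plus strand: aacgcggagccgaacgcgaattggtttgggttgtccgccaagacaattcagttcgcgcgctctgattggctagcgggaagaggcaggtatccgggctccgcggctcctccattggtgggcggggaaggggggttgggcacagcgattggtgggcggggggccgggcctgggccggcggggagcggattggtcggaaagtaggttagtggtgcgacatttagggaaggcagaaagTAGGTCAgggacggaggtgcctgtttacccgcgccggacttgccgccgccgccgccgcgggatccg
Nr1d1, second RefSeq start, chr10:84229405-84229704, minus strand: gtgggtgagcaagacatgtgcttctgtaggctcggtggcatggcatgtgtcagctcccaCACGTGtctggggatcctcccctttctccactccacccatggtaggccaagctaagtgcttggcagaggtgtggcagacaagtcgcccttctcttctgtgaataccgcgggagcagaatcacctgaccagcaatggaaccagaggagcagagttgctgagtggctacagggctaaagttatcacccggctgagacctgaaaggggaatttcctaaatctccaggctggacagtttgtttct
Per2, chr9:99496944-99497243, minus strand: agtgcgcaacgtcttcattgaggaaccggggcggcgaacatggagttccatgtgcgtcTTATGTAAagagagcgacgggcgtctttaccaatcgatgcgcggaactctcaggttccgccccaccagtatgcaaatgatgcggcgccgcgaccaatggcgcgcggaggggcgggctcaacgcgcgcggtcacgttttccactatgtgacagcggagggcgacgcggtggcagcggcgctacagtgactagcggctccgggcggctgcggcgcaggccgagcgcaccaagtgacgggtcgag
Tef, chr7:115206577-115206876, plus strand: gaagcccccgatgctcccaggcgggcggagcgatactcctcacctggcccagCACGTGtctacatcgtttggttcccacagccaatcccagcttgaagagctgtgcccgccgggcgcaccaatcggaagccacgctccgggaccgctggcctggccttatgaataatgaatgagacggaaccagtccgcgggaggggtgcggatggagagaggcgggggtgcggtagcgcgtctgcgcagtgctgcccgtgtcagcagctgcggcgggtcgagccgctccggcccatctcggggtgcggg
Ciart, chr2:186112197-186112496, minus strand: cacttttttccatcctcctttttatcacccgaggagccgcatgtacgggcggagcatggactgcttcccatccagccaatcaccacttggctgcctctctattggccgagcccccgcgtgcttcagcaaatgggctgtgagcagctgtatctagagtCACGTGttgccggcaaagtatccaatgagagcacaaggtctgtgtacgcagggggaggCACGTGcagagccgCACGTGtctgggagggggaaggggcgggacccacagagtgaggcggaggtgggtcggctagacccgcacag
Of 18 clock genes, 16 had a RefSeq promoter entry. E-boxes were found in 5 of them (Bhlhe40, Bhlhe41, Nr1d1, Tef and Ciart, the last with 3), the D-box in Per2 and the ROR element in Arntl, 16 bases before the start (position -16). Among all 33469 promoters, 6.42% held the E-box, 1.01% the D-box and 2.63% the ROR element. Among tested genes with an entry, the E-box share was 9.88%. It was 13.9% of the genes lower at 2am and 9.93% of those higher at 2am. A match in such a window is a description of the sequence and not a measured binding site.

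Of the 3 activators, Arntl and Clock were higher at night. Arntl, which encodes BMAL1 and carries the ROR element above, was at 18.7, 16.4, 16.9, 18.4 and 19.6 FPKM in the 5 libraries at 2am. At 2pm it was at 0.531, 1.16, 9.27, 12.5 and 9.94 FPKM. The groups did not overlap, but 2pm replicates 1 and 2 held about as little Arntl as the normal salt 2pm libraries (0.799 to 2.94 FPKM), while replicates 3 to 5 lay closer to the 2am level. The difference was 1.79 ± 0.44 (SE; limma adjusted p = 0.0238) and 2.55 without replicates 4 and 5 (adjusted p = 0.0027). It missed the threshold without 2am replicate 1 (adjusted p = 0.0555) or 5 (0.0528). Clock, which encodes the partner of BMAL1, was higher by 0.63 ± 0.11 (adjusted p = 0.00486). Without replicates 4 and 5 its difference was 0.50 and missed the threshold (adjusted p = 0.0506). Npas2, a paralog of Clock, was at 0.302 and 0.391 FPKM in 2pm replicates 1 and 2, at 2.66, 1.49 and 1.31 FPKM in replicates 3 to 5, and at 1.66 to 2.55 FPKM at 2am. It did not pass by limma with all libraries (0.61 ± 0.21; adjusted p = 0.0843) or without replicates 4 and 5 (0.75), and it passed by voom with all libraries (1.34; adjusted p = 0.0406).

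The E-box repressors differed among themselves. Cry1, which blocks the BMAL1 dimer, was at 16.9, 14.3, 18.4, 13.4 and 18.1 FPKM at 2am and at 6.01, 6.52, 1.27, 1.99 and 2.35 FPKM at 2pm. Every 2am library exceeded every 2pm library, with a difference of 2.05 ± 0.25 (adjusted p = 1.97e-04) and of 1.80 without replicates 4 and 5 (adjusted p = 0.00339). Per2, the Period gene with the D-box above, was at 22.3, 16.7, 21.1, 21.2 and 21.4 FPKM at 2am and at 20.8, 22.9, 3.87, 2.66 and 3.59 FPKM at 2pm. The first 2 of the 2pm libraries were at the 2am level and the other 3 were far below it, and the difference of 1.34 ± 0.41 missed the threshold (limma adjusted p = 0.0571; 0.65 without replicates 4 and 5). Per2 passed by voom (1.53; adjusted p = 0.0359) and when 2pm replicate 1 or 2 alone was left out. It also passed with the replicate number as a block, though nothing in the labels pairs libraries by that number.

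Per3, another Period gene, ran from 1.79 to 3.17 FPKM at 2am. At 2pm it was at 9.25, 11.4, 2.12, 1.3 and 1.53 FPKM, so replicates 1 and 2 lay above and replicates 3 to 5 within or below the 2am range. Cry2, the second cryptochrome, was at 15.9 and 15.6 FPKM in replicates 1 and 2, at 6.61, 5.40 and 5.12 FPKM in replicates 3 to 5, and at 13.7 to 18.4 FPKM at 2am. Neither passed by limma, with all libraries (-0.44 for Per3 and 0.78 for Cry2) or without replicates 4 and 5. Cry2, with an adjusted p of 0.0513, passed by voom (0.89; adjusted p = 0.0258), with the replicate number as a block, and when 2pm replicate 1 or 2 alone was left out. Per1 was at 20, 12.7, 8.57, 8.83 and 12.1 FPKM at 2pm and at 10.9, 11.3, 4.98, 8.85 and 6.21 FPKM at 2am, with groups that overlapped (difference -0.51 ± 0.24; adjusted p = 0.189; -0.63 without replicates 4 and 5). Ciart, a repressor with 3 E-boxes in its promoter, was left out by the expression filter. It was at 5.68 and 3.91 FPKM in 2pm replicates 1 and 2, at 0.103, 0.0711 and 0.315 FPKM in replicates 3 to 5, and at 0.152 to 0.372 FPKM at 2am.

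The REV-ERB receptors were lower at night against every day library. Nr1d1 (REV-ERB alpha) was at 33.0, 30.2, 31.5, 13.4 and 24.2 FPKM at 2pm and at 1.71, 1.80, 1.06, 1.95 and 2.58 FPKM at 2am. All 2pm libraries exceeded all 2am libraries by a wide gap, replicate 3 was level with replicates 1 and 2, and the lowest was replicate 4. The difference was -3.24 ± 0.19 (adjusted p = 8.88e-09) and -3.55 without replicates 4 and 5. Nr1d2 (REV-ERB beta) was at 49.6, 50.5, 23.8, 16.7 and 17.9 FPKM at 2pm and at 5.60 to 7.59 FPKM at 2am. Its difference was -1.95 ± 0.23 (adjusted p = 1.90e-04), and -2.40 without replicates 4 and 5. Rora, a ROR activator that competes with the REV-ERBs, did not pass (-0.04 ± 0.14; adjusted p = 0.887; -0.29 without replicates 4 and 5).

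The PAR bZIP outputs were high in only 2 of the 5 day libraries. Dbp was at 196, 137, 33.6, 8.13 and 24.9 FPKM at 2pm and at 24.2, 21.5, 18.8, 18.6 and 20.4 FPKM at 2am. The difference was -1.11 ± 0.55 (adjusted p = 0.211), and -2.18 without replicates 4 and 5 (adjusted p = 0.00781). Hlf was at 45.9 and 42.5 FPKM in replicates 1 and 2 and at 8.81, 2.99 and 7.16 FPKM in replicates 3 to 5, with 21.0 to 33.1 FPKM at 2am. Thus Hlf at night lay between both sets of day libraries, and its difference was 0.84 ± 0.47 with all libraries and -0.06 without replicates 4 and 5. Tef, whose promoter holds an E-box, was at 61.8 and 68.0 FPKM in replicates 1 and 2 and at 24.0, 14.2 and 21.6 FPKM in replicates 3 to 5, with 21.6 to 27.2 FPKM at 2am. Its difference of -0.34 with all libraries and of -0.88 without replicates 4 and 5 (adjusted p = 0.0711) did not pass. Nfil3, the D-box repressor, ran the other way, at 2.17, 1.20, 6.46, 9.58 and 10.1 FPKM at 2pm and 9.92 to 14.7 FPKM at 2am. It was higher at 2am by 1.18 ± 0.34 (adjusted p = 0.0497) and by 1.80 without replicates 4 and 5. That call was lost when any 1 of 2pm replicates 1 and 2 and the 5 libraries at 2am was left out (adjusted p from 0.059 to 0.113).

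**Figure D2:**
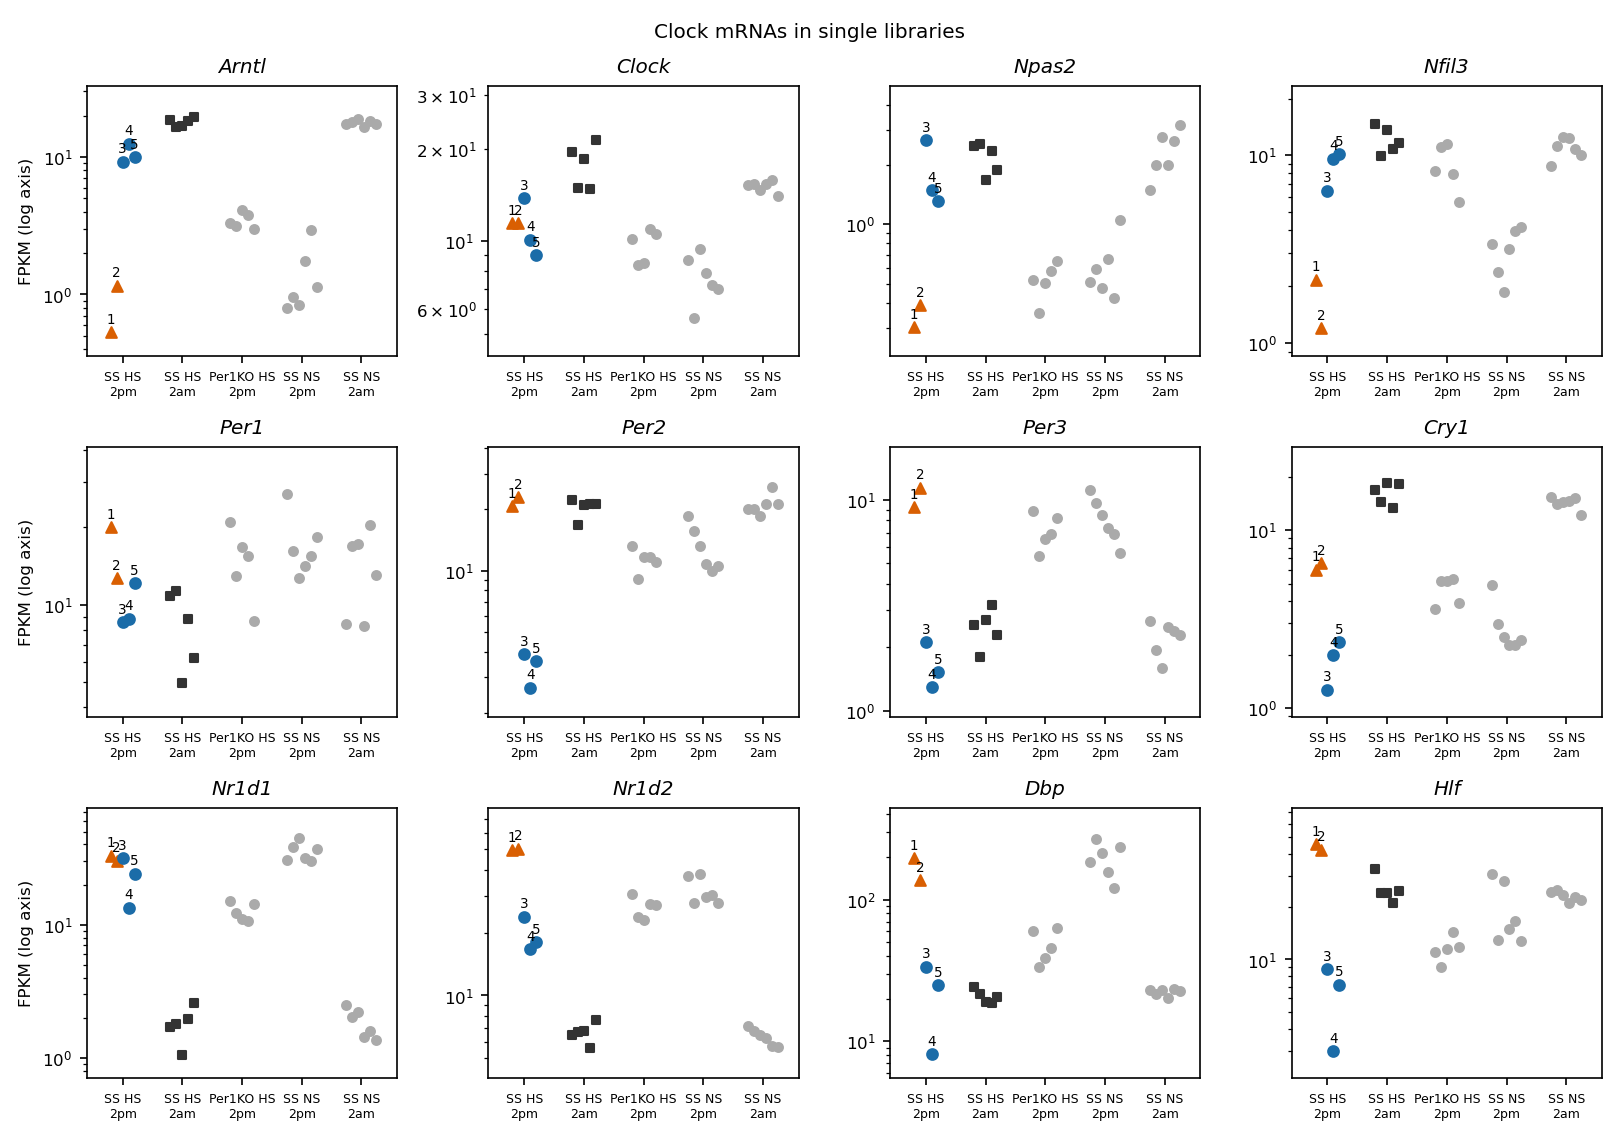
FPKM on a log axis (vertical) of 12 clock genes in each library, by group (horizontal): SS on high salt (HS) at 2pm, with replicate numbers, SS on high salt at 2am, Per1KO on high salt at 2pm, and SS on normal salt (NS) at 2pm and 2am. Triangles mark 2pm replicates 1 and 2 and the numbered circles replicates 3 to 5. Dbp is at 196 and 137 FPKM in replicates 1 and 2 and at 8.13 to 33.6 FPKM in replicates 3 to 5, whereas Nr1d1 stays above every 2am library in all 5.

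The 2pm libraries also divide by library name, replicates 1 and 2 from one range of names and replicates 3 to 5 from another. This split was examined with the scatter of the clock genes already known, so its clock counts are a description. In a fit of 6 group means, 1499 of 14899 genes (10.1%) differed between replicates 3 to 5 and replicates 1 and 2, 509 higher (3.42%) and 990 lower (6.64%) in replicates 3 to 5. Of the 17 clock genes 13 did, with Arntl, Npas2 and Nfil3 higher and 10 lower, and in 14 of the 17 the sets did not overlap. The sets did not overlap in 33.5% of all tested genes. Replicate 3 shared the low Per2, Cry1, Dbp and Hlf of replicates 4 and 5. Its proximal tubule marker mean of 8.75 lay within the range of the 2am libraries (8.69 to 9.29), and its podocyte mean of 4.14 was the highest of the 10 libraries. Its distal convoluted tubule mean of 4.93 lay below all 2am libraries (5.09 to 5.73), as did that of replicate 2 (4.97). Its principal cell mean of 4.77 lay above all 2am libraries (4.20 to 4.70). The part of these marker levels in the clock split was not tested.

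The median absolute difference of the clock genes between these sets was 1.33, against 0.22 for all genes. Per1KO libraries at 2pm fall into the same ranges of names, 3 and 2 libraries. There the median absolute difference of the clock genes was 0.10, against 0.13 for all genes, and limma called 0 genes (834 at an unadjusted p below 0.05). The difference of the 2 differences passed for 10 of the 17 clock genes and for 4.07% of all genes. Dbp in the Per1KO 2pm libraries ran from 33.5 to 63.0 FPKM.

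Set against the 2am libraries, 2pm replicates 1 and 2 gave 148 genes (0.993%) and replicates 3 to 5 gave 3646 (24.5%), in the same fit. Dbp differed by -2.93 ± 0.35 from replicates 1 and 2, near the -3.04 ± 0.13 of normal salt, and by 0.10 from replicates 3 to 5. Per2 differed by -0.09 and 2.30, Hlf by -0.79 and 1.93, and Arntl by 3.38 and 0.72, in the same order. Nr1d1 differed by -3.55 and -3.03 and Clock by 0.58 and 0.66. The SD of log2(FPKM + 1) had a median of 0.753 over the 17 clock genes at 2pm and 0.184 at 2am, and over all genes these medians were 0.254 and 0.168. On normal salt the clock medians were 0.328 and 0.119.

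**Figure D3:**
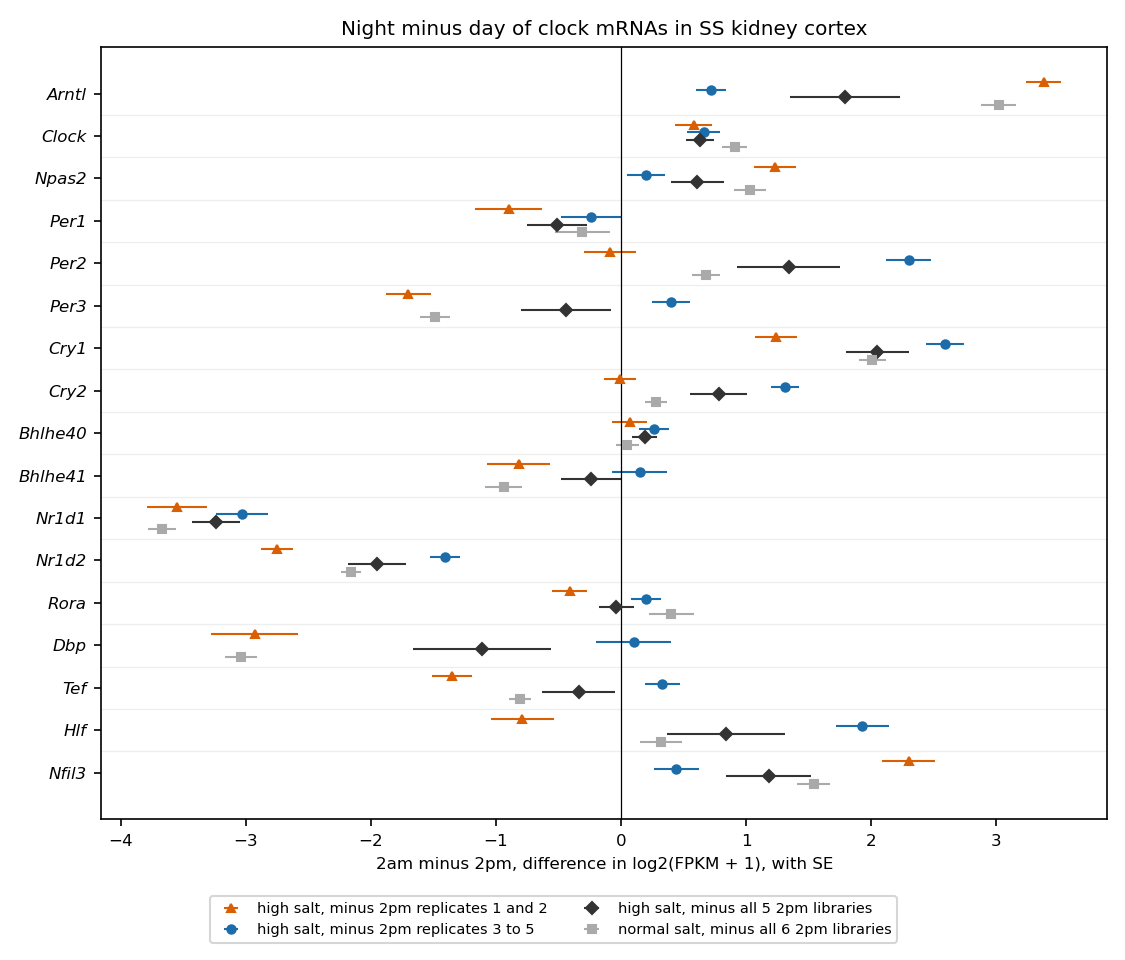
Differences in log2(FPKM + 1), 2am minus 2pm, with SE (horizontal axis) for the 17 tested clock genes (vertical axis). Triangles are against 2pm replicates 1 and 2, circles against replicates 3 to 5, diamonds against all 5, and squares the normal salt arm. Dbp lies at -2.93 and 0.10 against the 2 sets and Nr1d1 at -3.55 and -3.03.

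The 12 largest passing differences in each direction with a gene symbol also held genes outside the clock. Slc16a1, the lactate and pyruvate transporter MCT1, was at 102, 100, 119, 59.0 and 86.7 FPKM at 2am and at 28.3, 22.4, 36.1, 3.38 and 4.33 FPKM at 2pm. The groups did not overlap, and replicates 4 and 5 were the lowest. The difference was 2.69 ± 0.47 (adjusted p = 0.00376), and 1.64 without them (adjusted p = 0.0039). Slc15a1, a peptide transporter, was higher by 1.95 ± 0.40 and Barx2, a homeobox factor, by 1.92 ± 0.27, and both also passed without replicates 4 and 5 (1.10 and 1.67). Esm1, an endothelial proteoglycan, was higher by 1.57 ± 0.28 (1.13 without those libraries). Wsb1, a ubiquitin ligase subunit, was higher by 1.34 ± 0.18 (1.15 without).

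Other large rises did not pass without the 2 libraries that stood apart. Gldc, the glycine decarboxylase of mitochondria, was at 91.4, 67.1, 117, 74.7 and 116 FPKM at 2am and at 80.4, 64.9, 20.2, 1.31 and 4.74 FPKM at 2pm. Here replicates 1 and 2 overlapped the night libraries. Its difference of 2.42 ± 0.68 (adjusted p = 0.043) became 0.92 without replicates 4 and 5 (adjusted p = 0.231). G6pc, the last enzyme of gluconeogenesis, was at 212, 131, 105, 13.3 and 35.2 FPKM at 2pm and at 203 to 333 FPKM at 2am, and its difference of 1.87 ± 0.48 became 0.81 (adjusted p = 0.0637). Akr1c1, an aldo-keto reductase, and Bnc2, a zinc finger factor, likewise did not pass without them (0.61 and 0.46).

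Among the genes lower at night, Ttc21b, a cilium transport gene, was lower by -1.62 ± 0.27 and also passed without 2pm replicates 4 and 5 (-1.37). The other falls given here outside the clock did not pass without those libraries, with differences that stayed below 0. Gucy1b2, a guanylate cyclase subunit, went from -2.00 to -1.34. Cldn3, a tight junction protein, went from -1.94 to -1.07 and Stc1 (stanniocalcin) from -1.72 to -1.13. Bcl6, a transcriptional repressor, went from -1.68 to -1.20, and its difference was -1.94 to -1.20 over all alternatives run. Ppfia4 went from -1.65 to -0.97, Osgin1 from -1.54 to -1.0, Igfbp1 (an IGF binding protein) from -1.38 to -0.76 and Cyp2j4 (a cytochrome P450) from -1.36 to -0.76. In Cldn3 the 2pm libraries were at 6.21, 17.3, 20, 77.1 and 51.6 FPKM against 3.34 to 10.9 FPKM at 2am, so replicate 1 overlapped the night libraries and replicates 4 and 5 were the highest.

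**Figure D4:**
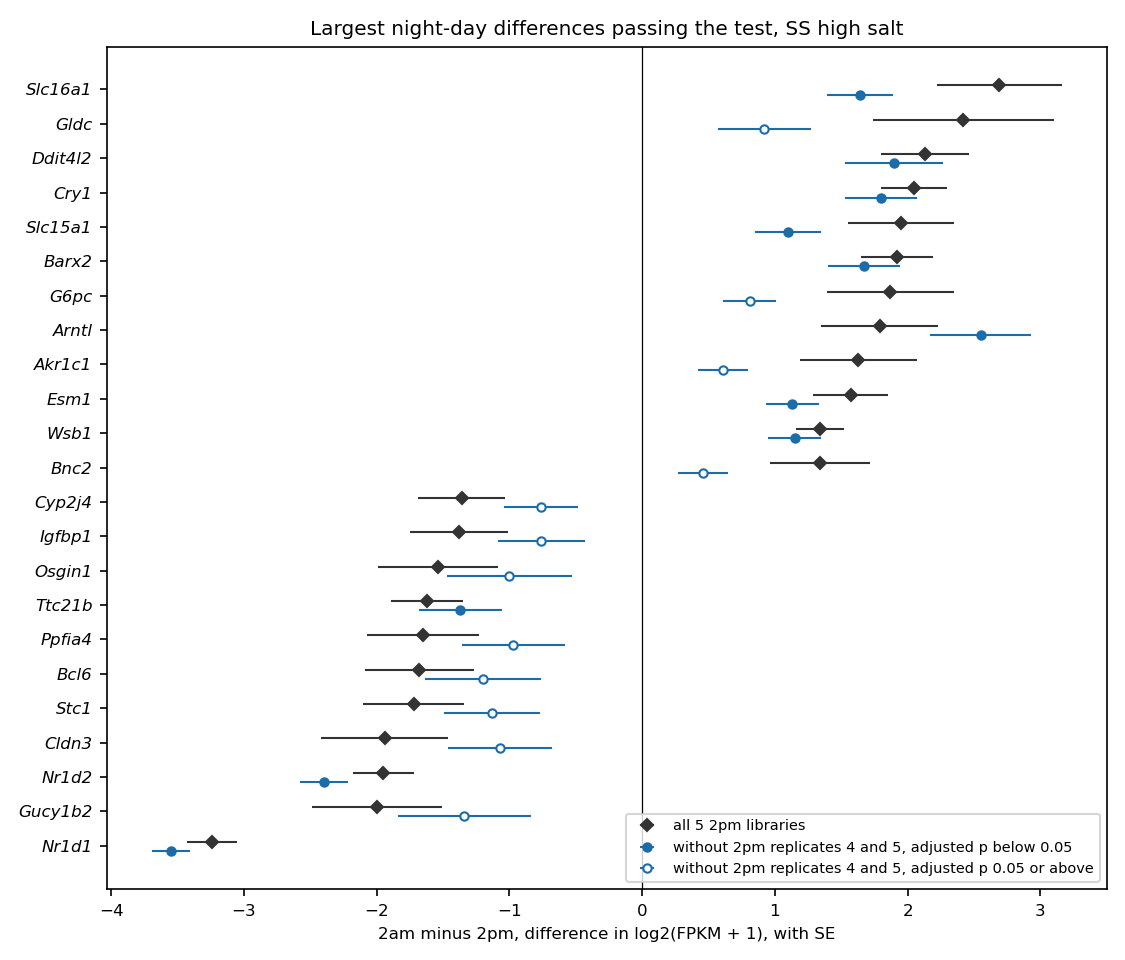
Differences in log2(FPKM + 1), 2am minus 2pm, with SE (horizontal axis) for the largest rises and falls that passed and are reported here (vertical axis). Diamonds use all 5 2pm libraries and circles leave out 2pm replicates 4 and 5, filled where the adjusted p was below 0.05. Slc16a1 moves from 2.69 to 1.64 and stays filled, and Gldc moves from 2.42 to 0.92 and is open.

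Sterol synthesis and lipogenesis had the same count with and without those libraries, in part through other genes. With all libraries 6 of its 27 tested members were higher at 2am and 0 lower, with a median of 0.26 against 0 for all genes (2.85% of all genes were higher). Without 2pm replicates 4 and 5 it was also 6 higher and 0 lower (0.705% of all genes were higher), with a median of 0.32, and 3 members passed in both. These were Srebf1, Scd2 and Insig1. Srebf1, the transcription factor of lipogenesis, was at 28.4, 17.8, 31.5, 19.9 and 32.7 FPKM at 2am and at 9.71, 9.87, 12.7, 13.2 and 13.1 FPKM at 2pm. The groups did not overlap (difference 1.06 ± 0.20; limma adjusted p = 0.00607; 1.17 without replicates 4 and 5).

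Scd2, a stearoyl-CoA desaturase, was at 53.2, 41.2, 52.3, 46.5 and 62.6 FPKM at 2am and at 18.4, 19.8, 24.4, 20.7 and 23.0 FPKM at 2pm. All 5 day libraries of Scd2 were alike, those that stood apart included, and the difference was 1.22 ± 0.17 (adjusted p = 8.43e-04). Insig1, the sterol sensor that holds SREBP back, was higher by 0.74 ± 0.14. The other 3 members that passed with all libraries were Fasn (1.07), Stard4 (0.80) and Acaca (0.63).

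Heat shock and folding genes passed in 5 of 29 upward and 1 downward, with a median of 0.19, against 2.85% of all genes higher and 2.59% lower. Fkbp4, a co-chaperone of steroid receptors, was at 98.2, 83.7, 90.6, 76.3 and 101 FPKM at 2am and at 61.1, 49.5, 47.6, 36.9 and 51.3 FPKM at 2pm (0.87 ± 0.13; adjusted p = 0.001). It was the single member that also passed without 2pm replicates 4 and 5 (0.76). Stip1 (0.53), Ahsa1 (0.55), Bag3 (0.54) and Hspd1 (0.32) were higher and Hspa1b (-0.68) was lower. All but Hspd1 and Hspa1b are co-chaperones of HSP90 or HSP70.

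Among 15 hypoxia and mTOR inhibitor genes, 4 were higher and 1 lower, against 2.85% and 2.59% of all genes. Ndrg1, a stress-regulated gene, was at 1540, 1430, 1560, 1040 and 1500 FPKM at 2am and at 474, 410, 726, 577 and 733 FPKM at 2pm. Its groups did not overlap (1.3 ± 0.15; adjusted p = 1.18e-04; 1.43 without replicates 4 and 5). Ddit4l2, named for its likeness to the mTOR inhibitor gene Ddit4, was higher by 2.13 ± 0.33, and 1.90 without them. Sesn3 (sestrin) and Vegfa were higher by 1.18 and 0.57, and Bnip3l, a mitophagy receptor, was lower by -0.30. Of these 5 genes, Ndrg1, Ddit4l2 and Bnip3l passed without replicates 4 and 5.

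The tricarboxylic acid cycle and pyruvate list had 6 of 26 members higher and 0 lower (Cs, Idh3a, Idh2, Dlat, Dlst and Ogdh), against 2.85% of all genes higher, with a median of 0.25. Citrate synthase, Cs, was at 146, 127, 131, 104 and 134 FPKM at 2am and at 115, 99.4, 102, 79.3 and 89.0 FPKM at 2pm, and these ranges overlapped. None of the 26 passed by limma without replicates 4 and 5, when 1.15% of all genes did, and the median was 0.10. There 6 of the 26 had an unadjusted p below 0.05, against 2079 of all 14899 genes. By voom with all libraries 12 passed, all higher. Over all 14899 genes voom called 709 higher and 189 lower, with a median difference of 0.034. Of 41 nuclear subunits of oxidative phosphorylation, limma called 0 and voom 3, all higher. By limma 5 of the 41 had an unadjusted p below 0.05, against 3735 of all 14899 genes. The glycolysis list had 3 of 24 higher (Slc16a1, Pgam1 and Pfkm), against 2.85% of all genes, and 8 by voom. Without replicates 4 and 5 it had 2 higher, against 0.705% of all genes. Of the 3 only Slc16a1 passed there, and Pgam1 (0.42 to 0.30) and Pfkm (0.48 to 0.34) did not.

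Autophagy and lysosome genes had 5 of 20 members lower and 0 higher at 2am (2.59% of all genes were lower): Atg5, Map1lc3b, Atg12, Ulk1 and Ctsl. Atg5, which is needed for autophagosome growth, was at 12.3, 14.5, 14.5, 14.5 and 15 FPKM at 2am and at 16.2, 20.8, 20.3, 24.8 and 22.0 FPKM at 2pm (-0.52 ± 0.09; adjusted p = 0.00376). It was the member that passed without replicates 4 and 5 (-0.40). The list median was -0.01, and 0.02 under voom, so no shift of the list as a whole was seen.

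In transport genes, the water channels Aqp2, Aqp3 and Aqp6 were lower at 2am, 3 of 10 in their list against 2.59% of all genes. Aqp2, the vasopressin-regulated channel of the collecting duct, was at 67.4, 54.8, 50.4, 74.4 and 62.8 FPKM at 2am and at 77.2, 77.4, 125, 228 and 227 FPKM at 2pm. Aqp2 and Aqp3 are themselves in the collecting duct marker list, and the 2 libraries with its highest means were also the highest for Aqp2. The difference of -1.08 ± 0.30 (limma adjusted p = 0.0411) was -0.56 without them (adjusted p = 0.341), and 0 of the 10 then passed. At an unadjusted p below 0.05 there were 5 of the 10, 2 of these higher at 2am, against 2079 of all 14899 genes. Voom was not run without those libraries. Trpm6, the magnesium channel of the distal convoluted tubule, was higher at 2am by 0.73 ± 0.12 and by 0.63 without those libraries. The phosphate transporter family member Slc17a3 was higher by 0.69 ± 0.12 in both. Trpm6 missed the threshold with only 2pm replicates 1 and 2 (limma adjusted p = 0.0518). It is itself in the distal convoluted tubule marker list. The mean of the 4 tested members was 2.91 and 4.58 in 2pm replicates 4 and 5 against 4.93 to 5.73 in the other 8. The part of this mean in the Trpm6 result was not tested.

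Sgk1, the kinase that raises sodium channel activity, was at 112, 146, 83.0, 83.3 and 89.4 FPKM at 2am and at 47.1, 57.5, 54.8, 55.0 and 67.7 FPKM at 2pm. Its groups did not overlap and its 5 day libraries were close together (0.83 ± 0.20; limma adjusted p = 0.0248). It missed the threshold without replicates 4 and 5 (0.91; limma adjusted p = 0.0775) but passed with only 2pm replicates 3 to 5. Sgk1 also missed without 2pm replicate 4, 2am replicate 1 or 2am replicate 2 (adjusted p from 0.0589 to 0.0646). With only 2pm replicates 1 and 2, in a fit of only the groups compared and with array weights it missed as well. The nuclear receptor Ppard was at 3.91, 2.98, 5.35, 9.35 and 11.1 FPKM at 2pm and at 10.1 to 12.3 FPKM at 2am, with day libraries 4 and 5 near the night level (0.87 ± 0.21; 1.34 without them). Ppard missed the threshold without 2am replicate 1 or 5 and in a fit of only the groups compared (limma adjusted p up to 0.174).

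Tubular injury genes did not pass in any of 26 members by limma or voom. At an unadjusted p below 0.05 there were 9 and 6 of them, against 3735 and 3585 of all 14899 genes. The median of the 26 was -0.50 with all libraries and -0.14 without 2pm replicates 4 and 5. Spp1 (osteopontin) was at 800, 1440, 1570, 5610 and 4000 FPKM at 2pm and at 175, 2190, 1440, 1110 and 516 FPKM at 2am, so the groups overlapped in 3 of the 5 day libraries (-1.40 ± 0.58; limma adjusted p = 0.143; -0.62 without replicates 4 and 5).

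**Figure D5:**
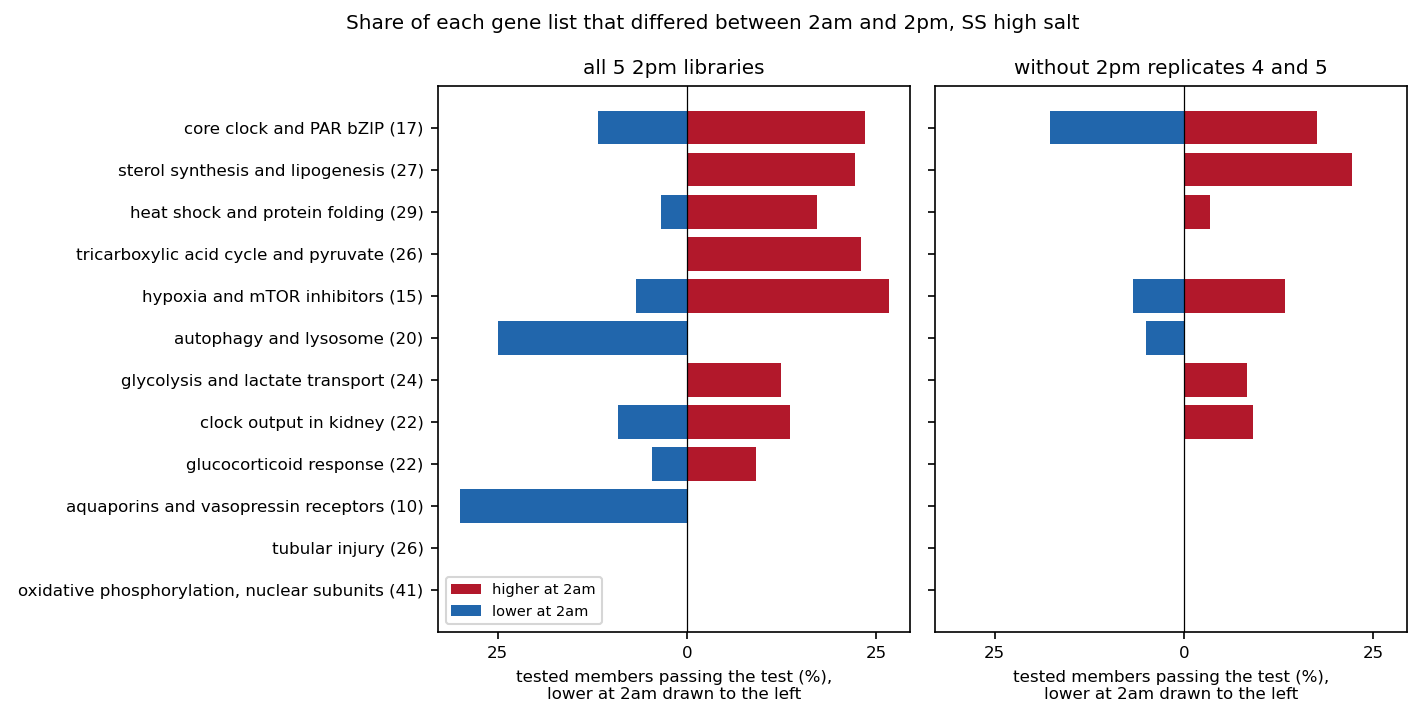
Share of tested members of 12 gene lists that passed (horizontal axis, percent, higher at 2am to the right and lower to the left), with list sizes in parentheses. The left panel uses all 5 2pm libraries and the right panel leaves out replicates 4 and 5. Sterol synthesis and lipogenesis has 6 of 27 higher in both panels, 3 of them the same genes, and the tricarboxylic acid cycle goes from 6 of 26 to 0.

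On normal salt the same night-day comparison in SS rats, with 6 libraries at each time and a separate deposited table, called 3534 of 13436 genes (26.3%). Of 13260 genes tested on both diets, 752 passed on high salt and 3517 on normal salt. The 424 genes that passed on both were 56.4% of the high salt calls and 12.1% of the normal salt calls, and 421 of them had the same direction. The other 3 were Klf3 and Col4a3bp, lower at 2am on high salt and higher on normal salt, and Haus4, with the opposite course. Of the high salt calls, 94.0% had the same sign on normal salt.

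The difference between the diets was tested itself in a joint fit. It passed for 10 of 13260 genes (0.0754%; 1863 at an unadjusted p below 0.05). None of the 17 clock genes passed (5 at an unadjusted p below 0.05; 0 genes of any kind by voom), and Dbp had a difference of 1.93 between diets with an adjusted p of 0.151. Klf3, a Krüppel-like repressor, was at 15.1, 15.2, 12.7, 14.4 and 14.6 FPKM at 2pm and at 11.2, 12.2, 11.1, 12.5 and 12.3 FPKM at 2am on high salt. On normal salt it ran from 7.53 to 11 FPKM at 2pm and from 10.9 to 12.6 FPKM at 2am. The high salt difference was -0.26 and the normal salt difference 0.29, and their difference was -0.55 ± 0.11 (limma adjusted p = 0.0191). Without replicates 4 and 5 it was -0.55 with an adjusted p of 0.0527. Heca (-0.51), the headcase homolog, and Haus4 (0.69), a subunit of the spindle complex augmin, also passed, and did so without replicates 4 and 5 (-0.46 and 0.73). Leaving out single SS libraries gave 3 (without 2am replicate 2) to 52 genes (without 2pm replicate 1). Diet and deposited table cannot be told apart.

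Per1KO rats on high salt gave the other comparison of differences. Per1 mRNA was at 8.64 to 20.9 FPKM in the Per1KO libraries at 2pm, within the SS range or just above it (8.57 to 20 FPKM), so gene-level FPKM does not check that label. The night-day difference differed between labels for 15 of 14899 genes (0.101%). Nr1d1 was at 15.2, 12.3, 11, 10.7 and 14.4 FPKM at 2pm and at 5.90, 6.91, 7.86, 6.05 and 6.38 FPKM at 2am in Per1KO. Its day level was below all SS day libraries but replicate 4 and its night level above all SS night libraries. The night-day difference was -0.84 in Per1KO and -3.24 in SS, a difference of 2.40 ± 0.27 (limma adjusted p = 4.87e-04), and it was the single gene of the clock that passed.

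Creb3l1, a transcription factor of the endoplasmic reticulum membrane, was at 9.55, 7.51, 7.68, 5.84 and 7.37 FPKM at 2am and at 2.57, 2.64, 4.53, 1.64 and 3.40 FPKM at 2pm in SS. It was higher at night there by 1.15 ± 0.16 and differed by -0.13 in Per1KO. The difference was -1.28 ± 0.22 (adjusted p = 0.0269), and -1.16 without replicates 4 and 5 (adjusted p = 0.0618). Eng (endoglin of endothelial cells) was at 54.7, 51.1, 51.5, 60.7 and 62.8 FPKM at 2am and at 44.3, 33.6, 44.4, 29.5 and 27.4 FPKM at 2pm in SS. It was higher at night in SS by 0.66 ± 0.14 and differed by -0.44 in Per1KO (difference -1.10 ± 0.20; adjusted p = 0.0385). Without replicates 4 and 5 the SS difference was 0.46 (adjusted p = 0.134) and the difference between labels -0.90 (adjusted p = 0.0802). The mean of 9 endothelium markers was 3.57 and 3.55 in those libraries against 4.00 to 4.36 in the other 8. Of the 9, 4 lay below all other libraries in both, and Eng is itself among the 9 and among these 4. The part of this mean in the Eng result was not tested. Cldn1, a tight junction claudin, and Hpdl, a mitochondrial dioxygenase, passed with -0.88 ± 0.17 and 1.52 ± 0.27. Without SS 2pm replicates 4 and 5, 4 genes passed, and 1 of them, Nr1d1, was among the 15. Leaving out single SS libraries gave 1 (without 2am replicate 5) to 167 genes (without 2pm replicate 1), with Nr1d1 passing each time.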

How the data were processed

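Poly(A) RNA of rat kidney cortex was sequenced. The authors deposited 1 table of FPKM per diet, and per the submitters' processing notes the tools were featureCounts 1.5.0-p3, HISAT2 2.0.5, fastp and StringTie 1.3.3b. No source used here names the genome build. FPKM times gene length gave whole fragments for 100% of values (within 0.01), with 15.3 to 27.6 M fragments per high salt library. Another deposited sheet was not used, and 0 columns lacked a sample.

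From these values log2(FPKM + 1) was computed here, and genes with an FPKM of at least 1 in at least 5 of the 20 high salt libraries were kept. A limma model (version 3.58.1, R 4.3.3, trended empirical Bayes) took the 4 group means, and p-values were adjusted by Benjamini-Hochberg over all genes, two-sided at 0.05. The diet interaction used 1 fit of 43 libraries in 8 groups over genes kept in both tables. Replicate numbers did not pair libraries (mean residual correlation of 0.03 between libraries with the same number). Between libraries of a group at least 98.9% of values differed. The analysis was tested on simulated data.

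The libraries, gene lists and split of the 2pm group were chosen with earlier results of these data known. Named genes were the clock lists, the 12 largest passing differences each way with a symbol, up to 4 passing members per list, and in interactions up to 6 each way. Not every gene the rule takes is printed, and 2 genes are not reported here, nor counted among the named genes and list members. Where a symbol had several identifiers, the one with the highest mean was used. Alternatives were a pseudocount of 0.1, no filter, median-ratio rescaling, a replicate block, a fit of only the groups compared, voom on recovered fragments, array weights, each set of 2pm libraries alone, each SS library left out and, added after the values were seen, 2pm replicates 4 and 5 left out.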

Additional observations from a re-analysis of the deposited data

Results flagged for a closer look

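Single libraries lay apart from the other 4 of their group for 10 of 166 pairs of gene and group examined, and chance alone gives about 1 in 20. At 2am these were Per2 in replicate 2 (16.7 FPKM), Igfbp1 in replicate 2 (35.8 FPKM), Ppard in replicate 3 (10.1 FPKM) and Atg5 in replicate 1 (12.3 FPKM). In 2am replicate 4 they were Bhlhe40 (47.3 FPKM), Ppfia4 (5.29 FPKM), Idh3a (82.2 FPKM) and Ndrg1 (1040 FPKM). In 2pm replicate 4 they were Slc8a1 (2.50 FPKM) and Aqp6 (99.4 FPKM).

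The night-day difference of SS rats on high salt differed from that of Per1KO rats for 15 genes in a limma interaction test. Per1KO minus SS was 2.40 for Nr1d1, 1.52 for Hpdl, 0.82 for Tmem174, 0.63 for Dnajc30, 0.54 for Aqp7 and 0.54 for Ccdc91. It was -1.28 for Creb3l1, -1.10 for Eng, -0.88 for Cldn1, -0.80 for Spry1, -0.79 for St3gal1 and -0.76 for Mtss1l.

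The SS night-day difference also differed between high and normal salt for 10 genes. High minus normal salt was 0.69 for Haus4, 0.63 for Dctpp1 and 0.47 for Ldb1. It was -0.55 for Klf3, -0.51 for Heca, -0.48 for Col4a3bp, -0.39 for Sppl3, -0.38 for Golph3 and -0.30 for Ubl3.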

How the results depend on the processing

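The count of genes that differed between 2am and 2pm (811) was within 1.5 times under a pseudocount of 0.1, no filter, median-ratio rescaling, the replicate block (889) and voom (898). It was 45 in a fit of only the groups compared, 345 with array weights, 241 with only 2pm replicates 1 and 2, 3607 with only replicates 3 to 5, and 171 without replicates 4 and 5. Leaving out 1 library gave 347 to 2398. The time by diet count (10) was 0 in a fit of only the groups compared, with voom and with array weights (1179, 1769 and 1439 genes at an unadjusted p below 0.05), 137 and 368 with only the first or second set of 2pm libraries, 5 without replicates 4 and 5, and 3 to 52 with 1 library left out. The label by time count (15) was 8 with no filter, 8 with the replicate block, 150 and 539 with either set, 4 without replicates 4 and 5, and 1 to 167 with 1 library left out. The replicate numbers share no animal or batch in the labels, and same-numbered SS libraries had residual correlations of -0.13 to 0.42. The block is therefore given as an alternative run and not as a pairing. Per2 and Cry2 passed with it but missed the threshold in the main fit.

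Directions changed for clock genes that had not passed, and the cause was not tested. With only 2pm replicates 1 and 2, Cry2 was -0.01, Per2 -0.09 and Hlf -0.79. With only replicates 3 to 5, Bhlhe41 was 0.15, Dbp 0.10, Per3 0.40, Tef 0.33 and Rora 0.20. Hlf was -0.06 without replicates 4 and 5, and Rora was 0.00 (above 0) with voom and -0.18 to 0.05 with 1 library left out. Of 104 named results, 63 lost and 1 gained a call without 2pm replicates 4 and 5, and 0 changed with median-ratio rescaling. In the fit of only the groups compared, which did not cover the label by time results, 68 of 92 lost their call. Arntl, Slc16a1, Slc15a1, Esm1, Insig1, Ddit4l2, Ttc21b and Atg5 were among those that lost it there. Few fragments limit precision at low FPKM, and genes left out by the filter, Ciart among them, were tested only with no filter.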
